A study of Mus musculus with 4 samples.

Results

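The genes described here encode the cytosolic factors that start protein synthesis on an mRNA and move the ribosome along it, together with enzymes that modify or inhibit those factors. They were taken as every protein-coding entry on chromosomes 1 to 19 whose symbol begins with Eif or Eef and a number, leaving out the Eif4ebp genes, which gave 63 of the 55599 entries of the deposited table. By symbol, 14 were Eef and 49 were Eif genes. By role, 6 were core elongation factors, 38 were core initiation factors (eIF1, eIF2, eIF2B, eIF3, eIF4, eIF5 and eIF6), 2 encoded eIF5A, and 8 and 9 encoded proteins related to elongation and to initiation.

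RNA came from neurospheres, the free-floating balls in which neural progenitors are cultured, which had been grown from embryonic day 12.5 cortex of C57BL/6 mice and carried to passage 3. One group was wild type (WT) and the other lacked the long noncoding RNA LncBAR (KO), with 2 libraries each, numbered replicates 1 and 2. The comparison asks how the loss of LncBAR goes with the RNA levels of these genes. The labels give neither the KO allele nor the embryo or culture behind each library. The p-values therefore rest on a spread that may be technical. Because these are bulk cultures, fewer cells of a type and less RNA per cell cannot be told apart.

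Count totals of the 4 libraries lay between 17244057 and 18280445. The RNA of LncBAR itself was not analysed here. Xist, the RNA made from an inactive X chromosome, had 36766 and 31563 counts in WT against 7 and 4 in KO, while the Y-linked gene Ddx3y had 0 in both WT libraries against 1496 and 1847 in KO. Genotype and sex chromosomes therefore cannot be told apart. All 10 neural stem cell markers were detected, from a mean FPKM (fragment counts scaled by gene length and library size) of 1458 for Fabp7, 838 for Vim, 203 for Sox2 and 172 for Nes down to 10.8 for Emx2, 5.52 for Hes5 and 4.10 for Pax6. The oligodendrocyte-lineage genes Olig1 and Olig2 reached 551 and 173 FPKM. Microglial markers summed to 0.0361 to 0.0976 FPKM in WT and 0.0553 to 0.133 in KO, with Tyrobp and C1qa at 0, and 4 of 5 erythroid markers, the globin genes, were at 0. Endothelial markers summed to 0.556 to 0.684 FPKM over the libraries, with Cdh5 at 0 and Kdr at 66 to 76 counts.

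Initiation begins when eIF2 carries the initiator tRNA to the small ribosomal subunit, where eIF1, eIF1A, eIF3 and eIF5 gather, while the eIF4 proteins bind the mRNA cap and unwind the leader. eIF2B recharges eIF2 with GTP, and kinases that phosphorylate eIF2 block that step under stress. In elongation, eEF1A brings each aminoacyl-tRNA to the ribosome, the eEF1B subunits recharge eEF1A, and eEF2 moves the ribosome to the next codon. Many mRNAs of elongation factors and ribosomal proteins, and of some initiation factors, begin with a terminal oligopyrimidine (TOP) tract, an unbroken run of C and T that starts with C at the cap and through which mTOR signalling controls their translation.

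Annotated starts are shown first, because the TOP tract is the sequence feature for which elongation factors are known. They are those of the 8 most abundant factor genes with exactly 1 RefSeq window, in order of level. Eif5a has several windows, and Eef1g, Eif3h and Eif4g2 have no window. Each line gives 5 bases before and 25 bases from the RefSeq start on GRCm38.p6, 5′ to 3′ on the strand of the gene. Capitals mark the longest run of C and T that starts with C, where it has at least 5 bases.
Eef1a1 (chr9:78481700-78481729, minus strand): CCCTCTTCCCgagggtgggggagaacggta
Eef2 (chr10:81176626-81176655, plus strand): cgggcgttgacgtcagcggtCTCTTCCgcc
Eif4a1 (chr11:69672399-69672428, minus strand): gtcacgtcgagttgcagagcgccggcaggc
Eef1b2 (chr1:63176826-63176855, plus strand): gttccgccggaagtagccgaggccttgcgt
Eif1 (chr11:100319944-100319973, plus strand): cacaggggcggctatataagtgaatacagg
Eif4b (chr15:102073768-102073797, plus strand): tcggacgccgcgccaCCCCCTCgcgctgct
Eif3f (chr7:108934410-108934439, plus strand): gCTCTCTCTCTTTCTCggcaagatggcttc
Eif3c (chr7:126566342-126566371, minus strand): cagagggactcggcagcttagctggttcgt

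Of these 8 windows, Eef1a1 held a run of 10 bases that began before the annotated start, Eef2 held 7 bases farther into the transcript, and Eef1b2 held no run of 5. Among the initiation factors, Eif3f, which encodes an eIF3 subunit, held the longest printed run, with 15 bases, Eif4b held 7, and Eif4a1, Eif1 and Eif3c held none of 5. A run of at least 5 bases that began within 10 bases of the start was present in 16 of the 49 factor genes with a window (32.7%) and in 3351 of 9065 tested genes (37.0%). It was present in 1 of 4 core elongation factors with a window and in 9 of 28 core initiation factors with a window (32.1%). Eef1g and Eef1d had no window and could not be examined. With a reach of 30 bases, chosen after seeing the data, the counts were 3 of 4 and 16 of 28, the latter 57.1%, against 64.8% of all tested genes. The share in the factors was close to that in other genes. Such runs were common among all tested genes, so these counts cannot tell whether the factors carry TOP tracts. For a gene with several windows, the longest run of any window was counted. A RefSeq start need not be the cap site used in these cells, and a match is a description of letters. A TOP tract starts at the cap, and none of the printed runs, that of Eef1a1 included, was shown to be one.

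Eef1a1, which encodes the eEF1A of most cells, was the most abundant factor RNA in these neurospheres. Eef1a1 (chr9:78478449-78489151) had 3667 and 3454 FPKM in WT and 3638 and 3883 in KO. Eef2, the translocase gene, followed with 946 and 886 FPKM in WT and 919.9 and 900.0 in KO. The ranges of these genes did not touch each other or that of any other factor.

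The genes of the eEF1B exchange complex were lower and unequal per gene length. Eef1g, whose product anchors the complex, had a mean of 222 FPKM over the 4 libraries, and Eef1b2, which encodes the exchange subunit, had 183. Eef1d, which encodes a further exchange subunit, had 20.7 FPKM. Eef1d is one of the genes whose level depends on the length used. With the longest protein-coding transcript in place of the union of all exons, a choice made after seeing the data, Eef1d reached 47.2 FPKM and Eef1a1 5087. Eef1a2, the eEF1A gene of mature neurons and muscle, was nearly absent, at 16 and 13 counts in WT against 9 and 15 in KO, and stayed below the mean of 1 FPKM required for testing.

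Core elongation factors took 1.36% and 1.28% of all counts in WT and 1.34% and 1.37% in KO, most of it from Eef1a1. Eef1a1 alone made up 67.9% and 68.0% of core elongation counts in WT and 68.3% and 69.4% in KO. Core initiation factors, with 38 genes against 6, took 0.839% and 0.845% in WT and 0.846% and 0.897% in KO. The summed counts of core elongation factors were therefore 1.62 and 1.51 times those of initiation factors in WT, and 1.58 and 1.53 times in KO. Both KO libraries lay between the WT libraries in this ratio. Per gene length, the median of the mean FPKM was 203 over the elongation factors and 34.2 over the initiation factors. With the longest protein-coding transcript the medians were 274 and 83.0, so the ratio between the classes was smaller, though the difference in FPKM was not.

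Initiation factor genes covered a wide range of levels within each complex. The most abundant were Eif4a1, which encodes the cap-bound RNA helicase, with 174 and 189 FPKM in WT and 187 and 224 in KO, and Eif1, a gatekeeper of start codon choice, with 175 and 154 in WT and 178 and 186 in KO. Eif3h (eIF3 subunit h) reached a mean of 164 FPKM, Eif4b (helicase cofactor) 128 and Eif4g2 (an eIF4G-like scaffold without the cap-binding protein site) 116. The ranges over libraries overlapped between neighbours in the order from Eef1g through Eif4a1, Eef1b2 and Eif1 to Eif3h, so these ranks are not separated beyond their spread. That order is the one with the exon union. With the longest protein-coding transcript Eif4a1 had a mean of 473 FPKM against 309 for Eef1g. The processed copy of Eif4a1, Eif4a-ps4, had 146 and 163 FPKM in WT and 164 and 191 in KO. It can share reads with Eif4a1 and was not added to it, so the level and rank of Eif4a1 are uncertain.

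Among eIF3 genes, mean levels ran from 164 FPKM for Eif3h to 2.66 for Eif3j2, although most of their products join in equal numbers in the complex. Part of that range moved with the gene length used: with the longest protein-coding transcript Eif3e went from 31.2 to 139 FPKM and Eif3i from 44.0 to 145. The eIF2 subunit genes Eif2s2 and Eif2s1 lay close together at 23.1 and 22.6 FPKM with the exon union, but at 61.4 and 32.8 with the longest protein-coding transcript. The eIF2B genes spread from 30.2 FPKM for Eif2b2 to 2.44 for Eif2b3, which encode a regulatory and a catalytic-side subunit.

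Where a factor has close copies, their levels differed to different degrees. Eif5a, the hypusine-bearing factor that frees stalled ribosomes, had 241 and 277 FPKM in WT and 258 and 288 in KO, whereas Eif5a2 stayed at 5.52 to 5.79, a ratio of 43.7 to 49.7 over the libraries, and of 77.2 with the longest protein-coding transcript. Eif4a1, counted without its processed copy, exceeded Eif4a2 by 3.54 to 4.35 times. Eif1 exceeded Eif1b by 2.27 times in the mean over libraries, and Eif3j1 exceeded Eif3j2 by 4.62 to 5.13 times. With the longest protein-coding transcript the ratios of these pairs were 4.87, 3.315 and 5.23. The cap-binding gene Eif4e exceeded Eif4e2, whose product is known as a repressor, by 2.61 to 3.55 times, but by 1.74 times with the longest protein-coding transcript. Among the scaffolds, Eif4g2 exceeded Eif4g1 by only 1.45 to 1.55 times, and Eif4g1 exceeded Eif4g3 by 4.43 to 4.77 times. Eif4e3 had only 9, 2, 7 and 3 counts. Eif4e1b, a germ-cell form, had 0 counts in every library, and a count of 0 allows up to 3. Eef1akmt3, a methyltransferase gene, had 5, 0, 3 and 1 counts.

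**Figure D1:**
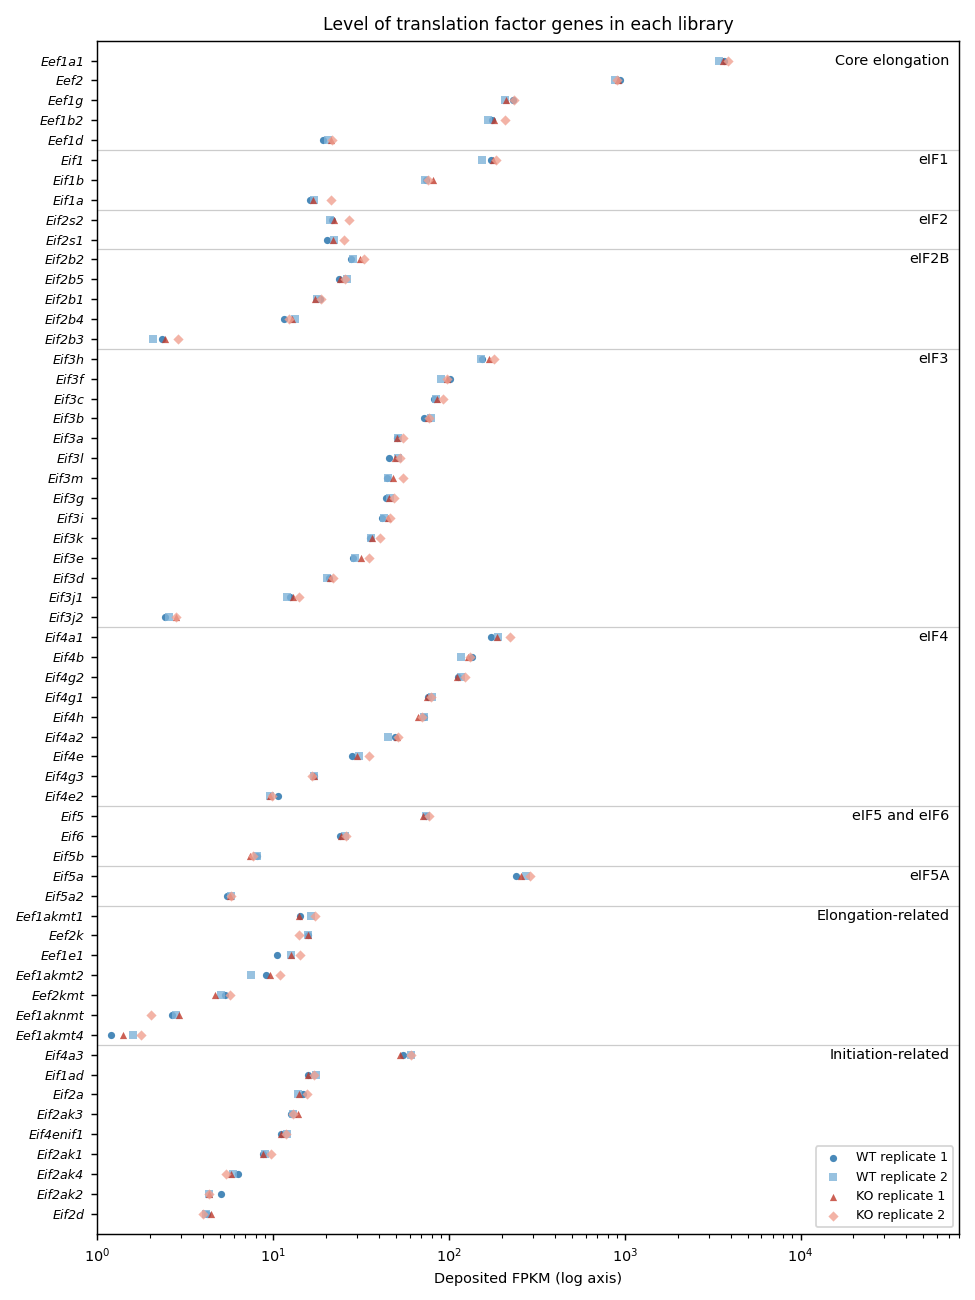
Deposited FPKM (log axis) of the 59 tested translation factor genes, 1 row per gene, with a marker for each of the 4 libraries. Eef1a1 and Eef2 stand apart at the right, most initiation factors lie between 10 and 200 FPKM, and the 4 markers of a gene nearly coincide on this scale.

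No translation factor gene on chromosomes 1 to 19 passed the test between KO and WT. With edgeR's quasi-likelihood test on the counts, 0 of the 59 tested factors had a Benjamini-Hochberg adjusted p under 0.05, against 9 of the 12997 tested genes (0.0692%, with 0.0385% higher and 0.0308% lower in KO), and the lowest adjusted p was 0.811. Among the 10589 tested autosomal protein-coding genes, the kind from which the factors were taken, 0 were called as well. At an unadjusted p under 0.05 there were 3 factors, Eif3e, Eif3h and Eif2b2, against 5.92% of all genes, and DESeq2 gave 2 such factors (2.82% of all genes), limma gave 2 on log2(FPKM + 1) and on log2(FPKM + 0.1) (5.19% and 5.05%) and 0 after quantile normalization (5.03%), and none of these fits put a factor past the adjusted threshold. In the authors' deposited table the log2 fold changes of 62 factors lay between -0.29 and 0.31, with a lowest adjusted p of 1.00.

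Differences were small, but they were not evenly spread around 0. Log2 fold changes of KO over WT lay between -0.15 (Eef1aknmt) and 0.31 (Eef1akmt2), with a median of 0.05 against 0.00 over all tested genes. They were positive for 42 of 59 factors, against 51.0% of all genes. Both KO libraries exceeded both WT libraries for 18 factors (30.5%, against 18.1% of all genes), and both lay below for 4 factors (6.78%, against 18.7%). KO replicate 2 was the highest library for 36 factors (61.0%, against 31.2%). Among 4805 autosomal protein-coding genes with at least 10 FPKM, a group nearer to the factors in level, 59.8% were positive, 23.2% had both KO libraries above and 14.5% below, and 41.1% were highest in KO replicate 2.

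The median gap between the libraries of a genotype was 0.09 log2 units in WT and 0.11 in KO, near the 0.08 and 0.10 of the autosomal coding genes with at least 10 FPKM. The 95% intervals of all 59 factors stayed within a 2-fold change in either direction, and those of 57 within a 1.5-fold change, as did 4752 of the 4805 genes of like level.

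**Figure D2:**
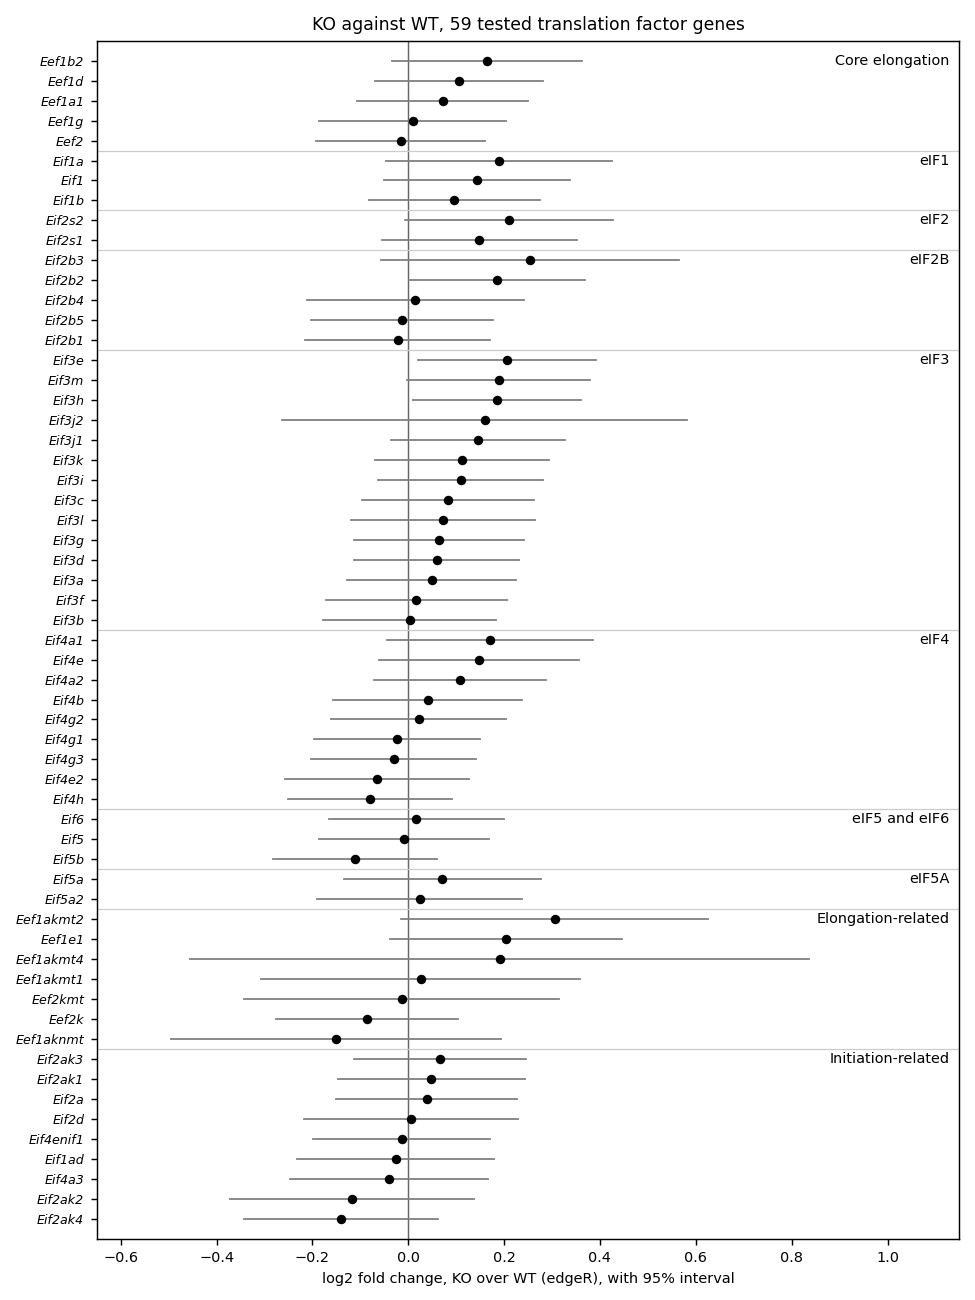
Log2 fold change of KO over WT (points) with its 95% interval (lines) from edgeR's quasi-likelihood test, for the 59 tested factor genes by role. All eIF3 points lie at or to the right of 0, and the intervals of Eif3e, Eif3h and Eif2b2 alone stay above 0 before adjustment.

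Elongation factors differed little between the genotypes. Eef1a1 had 9284 and 8708 CPM (counts relative to the scaled library total) in WT and 9185 and 9729 in KO. The groups overlapped, and the log2 fold change was 0.07 ± 0.08 (SE), with a 95% interval of -0.11 to 0.25 and an adjusted p of 0.896 in edgeR. Eef2 had 3195 and 2977 CPM in WT and 3097 and 3006 in KO, so that both KO values lay between the WT values, at a log2 fold change of -0.02 ± 0.08 (95% interval -0.19 to 0.16). Eef1g also overlapped, with 611 and 551 CPM in WT and 556 and 613 in KO.

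The exchange subunit genes were the elongation factors whose groups were separated, that is, with both KO libraries above or below both WT libraries. Eef1b2 had 456 and 429 CPM in WT (443 ± 19.4, SD, n = 2) and 462 and 530 in KO (496 ± 47.8). KO replicate 1 was barely above the higher WT library and KO replicate 2 was well above it. The log2 fold change was 0.16 ± 0.09 with an interval of -0.03 to 0.36 and an edgeR adjusted p of 0.830. Eef1d had 127 and 135 CPM in WT and 140.3 and 141 in KO, a log2 fold change of 0.11 ± 0.08 (adjusted p of 0.848, edgeR).

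All 14 eIF3 genes had a positive log2 fold change, and none passed the adjusted threshold. eIF3 is the largest initiation factor, a scaffold that holds the small ribosomal subunit, the mRNA and other factors together. Both KO libraries exceeded both WT libraries for 9 of the 14 (64.3%, against 18.1% of all genes), and the median log2 fold change was 0.10. KO replicate 1 alone was above both WT libraries for 9 of 14 (32.4% of all genes) and KO replicate 2 for 12 of 14 (37.1% of all genes). Without KO replicate 2, 12 of 14 were positive and the median was 0.04. Without WT replicate 1, 12 were positive too. The pattern was not particular to eIF3. Of 78 cytosolic ribosomal protein genes, 76 were positive, with a median of 0.195, and 68 (87.2%) had both KO libraries above both WT libraries. Among autosomal coding genes with at least 10 FPKM, 59.8% were positive and 23.2% had both KO libraries above.

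Eif3e, which encodes subunit e, had 195 and 198 CPM in WT (197 ± 2.11, SD, n = 2) and 215 and 239 in KO (227 ± 16.8). Both KO libraries were above both WT libraries, and the log2 fold change was 0.21 ± 0.08, with an interval of 0.02 to 0.39 (unadjusted p of 0.0328, adjusted p of 0.811, edgeR). Eif3h, which encodes subunit h, had 252 and 248 CPM in WT and 275 and 292 in KO, again without overlap. Its log2 fold change was 0.19 ± 0.08, with an interval of 0.01 to 0.36 (unadjusted p of 0.0401, adjusted p of 0.811, edgeR).

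Eif3m, which encodes subunit m, had 117 and 118 CPM in WT and 126 and 142 in KO, a log2 fold change of 0.19 ± 0.09. Other subunits lay nearer to 0. Eif3b had 247 and 270.2 CPM in WT and 258 and 261 in KO, with a log2 fold change of 0.00 ± 0.08, Eif3f had 0.02 ± 0.09 and Eif3a had 0.05 ± 0.08. The Eif3j genes, whose product sits loosely in the decoding site, gave 0.15 ± 0.08 for Eif3j1 and 0.16 ± 0.19 for the far lower Eif3j2.

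The autosomal eIF2 genes had their highest value in KO replicate 2. Eif2s2, the beta subunit gene, had 148 and 144 CPM in WT and 153 and 185 in KO, a log2 fold change of 0.21 ± 0.10 (adjusted p of 0.811, edgeR). Eif2s1, whose product is the alpha subunit that the stress kinases phosphorylate, had 102 and 112 CPM in WT and 111 and 127 in KO, and the groups overlapped (0.15 ± 0.09).

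The gamma subunit, which binds the initiator tRNA, is encoded on the sex chromosomes and is outside the 63 genes. Eif2s3x fell from 221 and 228 CPM in WT to 140.3 and 156 in KO, a log2 fold change of -0.60 ± 0.08 with an adjusted p of 0.0389 in edgeR. That adjusted p was 0.0608 without KO replicate 1, and 0.222 to 0.500 in the limma fits. The Y-linked copy Eif2s3y had 0 counts in both WT libraries and 56.4 and 60.7 CPM in KO. Added together, the gamma genes had 221 and 228 CPM in WT (225 ± 4.48, SD, n = 2) and 197 and 217 in KO (207 ± 14), of which the Y copy gave 28.7% and 28.0% in KO. Both KO sums lay below both WT sums, the higher of them by little. Eif1ax, the X-linked eIF1A gene, had 174 ± 2.52 CPM in WT and 181 ± 15.4 in KO.

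**Figure D3:**
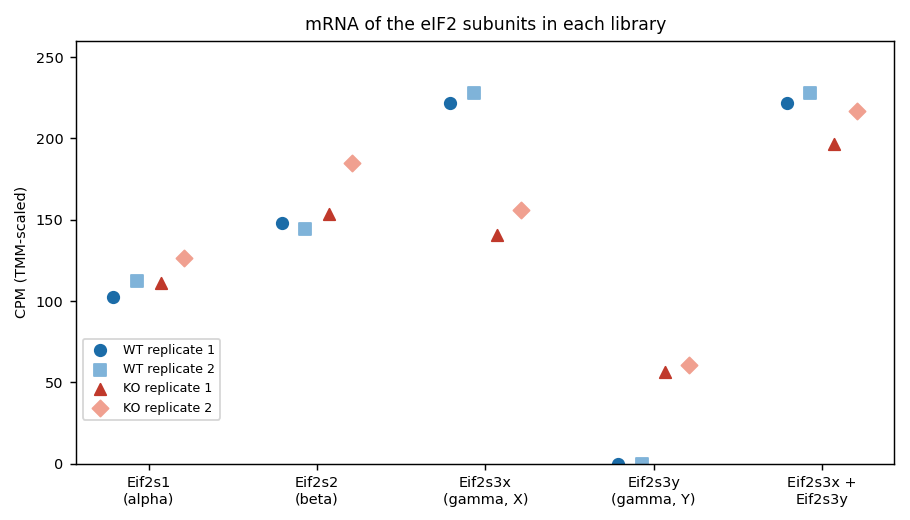
CPM of the eIF2 subunit genes in each library, with the gamma subunit shown as the X-linked copy, the Y-linked copy and their sum. The X-linked copy is lower in both KO libraries, the Y-linked copy is present in KO alone, and the sums of 197 and 217 CPM in KO lie just below the 221 and 228 CPM of WT.

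eIF1, the start-codon gatekeeper, had 372 and 327 CPM of Eif1 in WT and 379 and 393 in KO, and its paralog gene Eif1b had 84.7 and 83.2 in WT and 93.0 and 86.5 in KO. Both were separated between the genotypes, with log2 fold changes of 0.14 ± 0.09 and 0.10 ± 0.08. Eif1a, the autosomal eIF1A gene, had 0.19 ± 0.11 with overlapping groups.

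Of the 5 eIF2B genes, 2 had both KO libraries above both WT libraries (18.1% of all genes). Eif2b2, which encodes the beta subunit, had 53.1 and 54.5 CPM in WT (53.8 ± 0.976, SD, n = 2) and 59.8 and 62.5 in KO (61.1 ± 1.91). The gap between the genotypes was larger than the gaps within them, and the log2 fold change was 0.18 ± 0.08, with an interval of 0.00 to 0.37 (unadjusted p of 0.0482, adjusted p of 0.811, edgeR). Eif2b3, the gamma subunit gene, had 15.5 and 13.8 CPM in WT and 16.1 and 18.9 in KO (0.25 ± 0.14). Eif2b1, Eif2b4 and Eif2b5, the last of which encodes the catalytic epsilon subunit, had log2 fold changes of -0.02, 0.01 and -0.01.

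The eIF4 genes pointed both ways, with 5 of 9 tested members positive, against 51.0% of all genes. Eif4a1 had 766 and 831 CPM in WT and 821 and 976 in KO, an overlap with KO replicate 2 well above the rest (0.17 ± 0.10, adjusted p of 0.830, edgeR). Its processed copy Eif4a-ps4, which can share its reads, held 19.1% to 19.7% of the summed counts of both in the 4 libraries and had a log2 fold change of 0.19 ± 0.10. Eif4a2, the helicase paralog, had 267 and 246 CPM in WT and 276 and 276 in KO (0.11 ± 0.08). Eif4e, which binds the cap, had 0.15 ± 0.09 with overlapping groups.

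Eif4h, which encodes a helicase cofactor, had 409 and 406 CPM in WT and 377 and 394 in KO, and was separated in the opposite direction with a log2 fold change of -0.08 ± 0.08. The scaffold genes stayed near 0, with -0.02 ± 0.08 for Eif4g1, 0.02 ± 0.08 for Eif4g2 and -0.03 ± 0.08 for Eif4g3, and Eif4b had 0.04 ± 0.09.

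Eif5b, whose GTPase joins the ribosomal subunits, had the lowest log2 fold change of the 36 tested core initiation factors. It had 80.5 and 80.2 CPM in WT (80.4 ± 0.199, SD, n = 2) and 73.4 and 75.4 in KO (74.4 ± 1.39). Both KO libraries were below both WT libraries, and the log2 fold change was -0.11 ± 0.08 (adjusted p of 0.839, edgeR). Eif5, the GTPase activator gene, had -0.01 ± 0.08, Eif6, whose product keeps free large subunits apart, had 0.02 ± 0.08, and Eif5a had 0.07 ± 0.09.

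The kinases that phosphorylate eIF2 pointed in both directions. Eif2ak4, which encodes the amino acid sensor GCN2, had 48.3 and 45.1 CPM in WT and 44.0 and 40.7 in KO, below WT in both KO libraries (-0.14 ± 0.09, adjusted p of 0.836, edgeR). Eif2ak2, which encodes the double-stranded RNA sensor PKR, had -0.12 ± 0.11. Eif2ak1, for the heme-regulated kinase HRI, had 0.05 ± 0.09, and Eif2ak3, for the endoplasmic reticulum stress kinase PERK, had 0.07 ± 0.08. The remaining initiation-related genes, among them the exon junction helicase gene Eif4a3 (-0.04 ± 0.09), had overlapping groups.

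The extremes of the set were low-level genes of enzymes that methylate eEF1A. Eef1akmt2 had 16.4 and 13.3 CPM in WT and 17.2 and 19.5 in KO, and Eef1aknmt had 26.5 and 27.7 in WT and 29.0 and 19.9 in KO. The first was separated, with a log2 fold change of 0.31 ± 0.14 (adjusted p of 0.811, edgeR), and the second was low in KO replicate 2 alone (-0.15 ± 0.16), with a value of 0.10 without that library. Eef2k, the kinase gene whose product inactivates eEF2, had 120 and 118 CPM in WT and 119 and 105 in KO (-0.09 ± 0.09), again lowest in KO replicate 2. Eef1e1, a tRNA synthetase scaffold gene, had 0.20 ± 0.11 with overlapping groups, and Eef1akmt1, the methyltransferase gene of highest level, had 0.03 ± 0.15.

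Core elongation and core initiation factors had nearly equal median differences between the genotypes, and their difference was not tested. The median log2 fold changes were 0.07 over 5 tested elongation factors and 0.08 over 36 tested initiation factors, a difference of -0.005. Positive values were found for 4 of 5 and 28 of 36, against 51.0% of all genes. Both KO libraries were above both WT libraries for 2 of 5 and 15 of 36 (18.1% of all genes). Both were below for 0 of 5 and 3 of 36 (18.7% of all genes). Among autosomal coding genes with at least 10 FPKM these shares were 59.8%, 23.2% and 14.5%. In summed counts, core elongation factors had 13236 ± 617 CPM in WT and 13731 ± 409 in KO (SD, n = 2), and core initiation factors had 8447 ± 12.4 and 8834 ± 454. The initiation sum was 8438 and 8456 CPM in WT and 8513 and 9154 in KO, so that most of the difference lay in KO replicate 2.

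Library by library, the median log2 deviation of the factors from their own 4-library mean put KO replicate 2 highest in both classes. For elongation factors it was 0.010 and -0.078 in WT against -0.005 and 0.074 in KO, and for initiation factors -0.056 and -0.032 against -0.006 and 0.071. The eIF3 genes had -0.067 and -0.045 against 0.003 and 0.080. WT replicate 2 was the low library for elongation and WT replicate 1 for initiation, and KO replicate 1 was near 0 in each.

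Other RNA classes were also highest in KO replicate 2. Cytosolic ribosomal protein genes took 3.70% and 3.80% of counts in WT and 4.00% and 4.45% in KO, with median deviations of -0.111 and -0.077 in WT and 0.011 and 0.191 in KO. Mitochondrially encoded genes took 3.15% and 3.28% in WT and 3.31% and 3.87% in KO. The glial markers Sox10, Mbp, Pdgfra and Gfap were lowest in that library, and Olig1 was highest there. Sox10, of the oligodendrocyte lineage, had 37.4 and 30.8 CPM in WT and 33.8 and 20.2 in KO, and the astrocyte gene Gfap had 19.2 and 14.7 in WT and 17.6 and 9.89 in KO. Of the tested markers, 2 of 6 of the oligodendrocyte lineage (median log2 fold change -0.15) and 1 of 5 of astrocytes (-0.18) were positive. The share over all genes was 51.0%, and none of these markers passed the adjusted threshold in edgeR. Summed FPKM of the oligodendrocyte list, set mostly by Olig1, was 709 and 754 in WT against 749.6 and 769.8 in KO, and that of the astrocyte list 53.5 and 42.6 against 46.5 and 36.9. The part of these RNAs in the factor result was not tested. With ribosomal protein and mitochondrial genes left out of the fit, the medians were 0.07 for elongation and 0.08 for initiation factors. Without KO replicate 2 both medians were 0.03.

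**Figure D4:**
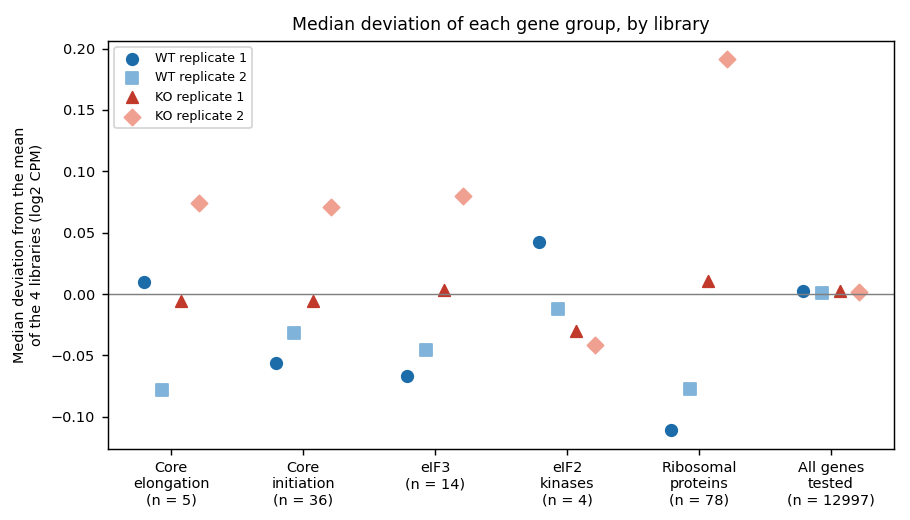
Median log2 deviation of each gene class from its own 4-library mean, by library. Elongation factors, initiation factors and eIF3 reach 0.07 to 0.08 in KO replicate 2, ribosomal protein genes reach 0.191 there, and the median of the 4 eIF2 kinases, of which 2 were positive and 2 negative, is -0.042 there.

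Other genes of the pathway, taken from 6 lists of regulators and companion factors, gave no call either. Of 46 tested genes, 0 passed the adjusted threshold in edgeR in either direction, and 25 were positive (51.0% of all genes). Both KO libraries were above both WT libraries for 6 and below for 8 (18.1% and 18.7% of all genes). The median log2 fold change was 0.02. These counts were near those of other genes. Upstream of initiation, 4 of 11 genes of mTOR and MAP kinase input were positive. Tsc2, which restrains mTOR, had 96.2 and 98.4 CPM in WT and 87.8 and 84.3 in KO, below WT in both KO libraries (-0.18 ± 0.08, unadjusted p of 0.0461, adjusted p of 0.811, edgeR). Mtor, the kinase gene itself, and Rptor, which encodes its substrate-binding partner, were also below WT in both KO libraries, at -0.10 ± 0.08 and -0.17 ± 0.08. Of the 11 genes, 4 lay below WT in both KO libraries and 3 lay above. Those above were Rheb (0.15 ± 0.08), Rps6kb1 (0.07 ± 0.08) and Mknk1 (0.09 ± 0.09). The largest log2 fold change in size was that of the low-level kinase gene Rps6kb2, with 10.3 and 18.9 CPM in WT and 11.6 and 1.40 in KO, where KO replicate 2 alone was low (-1.17 ± 0.60, adjusted p of 0.813, edgeR). Eif4ebp1 and Eif4ebp2 encode repressors that sequester eIF4E. Eif4ebp1 overlapped between the groups (0.24 ± 0.14), and Eif4ebp2 had 243 and 248 CPM in WT and 224 and 222 in KO (-0.14 ± 0.08, adjusted p of 0.830, edgeR).

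Downstream of eIF2 phosphorylation, the transcription factor gene Atf4 had 244 and 222 CPM in WT and 260 and 274 in KO. Both KO libraries were above both WT libraries, with a log2 fold change of 0.19 ± 0.08 (unadjusted p of 0.0432, adjusted p of 0.811, edgeR). The list that holds Atf4, of eIF2 phosphatase and reinitiation genes, had 5 of 6 positive, against 51.0% of all genes. Abce1, the ribosome recycling factor gene, had 0.13 ± 0.09, and Dohh, which completes hypusine on eIF5A, had 0.08 ± 0.16. Mitochondrial translation factors had 3 of 9 members positive (51.0% of all genes), with a median of -0.03. Mtif2, the mitochondrial initiation factor gene, had -0.10 ± 0.09.

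The genes whose library pattern was most like the median elongation factor were Snapin, Cnot7, Zc3h8, E2f5 and Senp6, with Pearson r of 0.998 to 1.00 over 4 libraries. Snapin had 49.4 and 43.7 CPM in WT and 48.5 and 54.2 in KO, low in WT replicate 2 and high in KO replicate 2. Senp6 matched in shape but hardly varied, with an SD of 0.0116 log2 units over the libraries against 0.127 for Snapin. With only 4 libraries, 486 of 10526 genes had an r over 0.9 with the median elongation factor pattern.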

How the data were processed

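Per the labels' protocols, polyadenylated RNA was made into libraries without strand and sequenced in 150 bp pairs, and the submitters' processing notes name TopHat2 2.1.1, Cufflinks 2.2.1 and cutadapt 1.16. The authors deposited whole-number counts per gene, FPKM values that the authors scaled by gene length and library size, and their own comparison with log2 fold changes and p-values. The mean signal per genotype that the authors deposited was not used. How reads were counted, and where multiply matching reads went, is not stated, so Eif4a1 and its processed copy are uncertain.

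Counts were tested for KO against WT in edgeR 4.0.16 (R 4.3.3) with the quasi-likelihood test, TMM scaling and genotype alone, over 12997 genes with a mean FPKM of at least 1, with Benjamini-Hochberg adjustment and a threshold of 0.05. CPM is relative to the TMM-scaled library, and the SE is the log2 fold change divided by the square root of F. Positive, above and below are counts without a test. All 63 genes stood at their GENCODE M21 positions, and 4 fell below the filter. No library repeated another, since chi-square divided by its degrees of freedom was 6.61 to 14.8 between pairs. The steps were tested on simulated data whose changes were larger than those of the factors. The power to find changes as small as those seen here was therefore not examined. Alternatives used limma 3.58.1 and DESeq2 1.42.0.

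The members, their roles and all gene lists were chosen with earlier results of these data known. Named genes are the core elongation factors, the members of highest level and smallest p in each role, the 5 highest and 5 lowest log2 fold changes, the eIF2 kinases, the paralog groups, the genes below the filter, the pathway list members of smallest p, and the 5 nearest in pattern. Other genes named with values, such as Eif3m, Eif4h, Eif2s1, Eif2s3x and Eif4a-ps4, lie outside that rule and were picked with their values in view. Protein sequences were not used here.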

Additional observations from a re-analysis of the deposited data

How the results depend on the processing

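The count of 0 factor genes past the adjusted threshold was the same in all 16 refits, with a lowest adjusted p of 0.216 to 1.00, and 0 to 13 factors had an unadjusted p under 0.05: 13 without KO replicate 1 (12.1% of all genes), 12 with the replicate block (12.3%), and 0 without KO replicate 2 (3.00%) and with quantile normalization (5.03%). Over all genes 9 were called, against 3 in limma on quantile-normalized values, 4 in limma with a pseudocount of 1, 3 with a pseudocount of 0.1, 31 without the expression filter, 1 without chromosomes X, Y and MT, and 15 to 86 when a library was left out (WT replicate 1 gave 86, WT replicate 2 51, KO replicate 1 22 and KO replicate 2 15). The replicate block gave 24 calls over all genes, and 0 factors. The labels do not tie the numbers to a litter or day, and deviations of same-numbered libraries correlated at 0.0903 across 12997 genes, so the numbers were not taken as pairs. With quantile normalization the medians were 0.0 for elongation and 0.0224 for initiation factors. Leaving out a library gave 0.0267 to 0.111 for elongation and 0.0301, without KO replicate 2, to 0.108 for initiation factors, and a difference of -0.0646, without WT replicate 2, to 0.00285. The eIF3 median was 0.04 without KO replicate 2, and 0.05 with quantile normalization, where 12 of 14 were positive, as without WT replicate 1. Of 778 refitted log2 fold changes of 49 named genes, 735 stayed within 1 SE with the same call, 39 moved farther and 4, all of Eif2s3x, lost the call, and 15 genes changed sign in some refit, each with a log2 fold change within 0.15 of 0. The causes were not tested. With 2 libraries per genotype, depth limits only the genes of low count, such as Eef1akmt4, whose interval was the widest.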
